A study of Mus musculus with 16 samples.

Results

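The genes described here mark GABAergic neurons, the inhibitory neurons of the forebrain, and were followed in 2 brain regions of young mice with a mutant nuclear receptor RORα. They are 8 genes, chosen by the symbols of the array platform: Gad1, Gad2 and Slc32a1 for the synthesis and transport of GABA, Sst and Npy for peptides of interneurons, and Dlx1, Dlx2 and Lhx6 for transcription factors of their development. Each had 1 probe under its own symbol, so the group holds 8 of 24107 probes. Every array set RNA of a Stagerrer mutant against RNA of a control from a litter with the same number, on the C57BL/6 background, at postnatal days 5 to 6. The staggerer allele is an inherited deletion within Rora, which encodes RORα, so every cell of a mutant carries it. The labels give neither the number of copies nor the number and sex of the animals behind an RNA sample. Tissue came from the ventrobasal nucleus of the thalamus (VB), which relays touch, and from the somatosensory cortex, with 4 litters in each. In each tissue a litter had 2 arrays with Cy5 and Cy3 exchanged between mutant and control, which made 16 arrays.

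GABA is made from glutamate by glutamate decarboxylase, loaded into synaptic vesicles by a transporter of its own, and released to inhibit the next neuron. Cortical interneurons are born in the ventral forebrain under the control of Dlx genes, migrate into the cortex, and split into types that carry peptides such as somatostatin or neuropeptide Y. The rodent VB is known for having few inhibitory neurons of its own. It receives inhibition from the reticular nucleus beside it, a sheet of GABAergic cells.

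The deposited values are log ratios of an array's channels, taken as log2, a base that is not stated, so folds rest on it. Ratios give no level, so neither the identity of a tissue nor the abundance of a gene could be checked. The numerator is not stated either, so a sign does not say in which genotype a gene had more RNA. The columns were used as deposited, that is, as if all 16 ran in the same direction. In VB the probe of Xist, a gene of the inactive X chromosome, changed its sign when the dyes were exchanged in 3 of 3 litters with a pair, with sizes up to 0.55. In cortex it kept its sign in 3 of 3 litters, with -2.03 where mutant RNA was in Cy5 and -1.28 where it was in Cy3 in litter 2. Probes of Y-linked genes gave mixed signs in both tissues. The Rora probe also changed the sign of its mean in VB and kept it in cortex. In VB its mean log2 ratio was -0.13 ± 0.12 (SD, n = 4 litters; limma adjusted p = 0.555), made of 0.29 with mutant RNA in Cy5, positive on 4 of 4 arrays, and -0.56 with mutant RNA in Cy3, negative on 4 of 4. In cortex it was -0.45 ± 0.26 (SD, n = 3; limma adjusted p = 0.358), with means of -0.58 with mutant RNA in Cy5 and -0.32 with mutant RNA in Cy3. Cortex litter 1 was an exception that changed sign, with -0.58 with mutant RNA in Cy5 and 0.26 with mutant RNA in Cy3. Across all features the correlation between the arrays of a swapped pair, as limma estimates it, was -0.34 in VB and -0.081 in cortex. Where this probe lies relative to the deletion is unknown. Each gene is therefore given by dye assignment, and in VB what follows the dye and what follows the genotype cannot be told apart where the signs differ. VB RNA was amplified by PCR before labelling and cortex RNA was not, so tissue and labelling method cannot be told apart either.

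Among the peptide genes of cortical interneurons, Sst had the clearest ratio of the group. Sst encodes somatostatin, made by interneurons that inhibit the dendrites of pyramidal cells. Its gene lies on chromosome 16 (23889573 to 23891342, GRCm38.p6). In cortex the log2 ratios were 0.25, 0.57, 0.44 and 0.65 in litters 1 to 4 with mutant RNA in Cy5, and 0.72, -0.14, 1.10 and 1.23 with mutant RNA in Cy3. Thus 7 of 8 arrays were positive, and the exception was litter 2 with mutant RNA in Cy3. The litter means were 0.48, 0.22, 0.77 and 0.94, all above 0. Their mean was 0.60 ± 0.32 (1.52-fold; SD, n = 4 litters; 95% interval 0.33 to 0.88), a size that 0.847% of the tested cortex features exceeded. The unadjusted p was 0.000401 and the adjusted p 0.157 by limma over all 16522 features, so Sst did not pass the threshold of 0.05. The exact permutation test that changes the sign of whole litters gave a two-sided p of 0.125, the smallest that 4 litters allow. Had the columns held Cy5 over Cy3 on every array, the mean of Sst would be -0.12 (adjusted p = 0.743 by limma). In bulk tissue, a different number of somatostatin cells and a different amount of the RNA per cell cannot be told apart.

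The stretch before the Sst start site is shown because this gene had the largest ratio, next to that of Gad1, whose ratio had the opposite sign. Both are RefSeq sequences of GRCm38.p6, 250 bases before the start that the RefSeq promoter set takes for the gene, which lies inside the gene's whole annotated span in both cases, read 5′ to 3′ on the gene's strand (Sst chr16:23890845-23891094, minus strand, and Gad1 chr2:70561879-70562128, plus strand). Capitals mark TGACGTCA, the cAMP response element for which the Sst promoter is a textbook case.
Sst: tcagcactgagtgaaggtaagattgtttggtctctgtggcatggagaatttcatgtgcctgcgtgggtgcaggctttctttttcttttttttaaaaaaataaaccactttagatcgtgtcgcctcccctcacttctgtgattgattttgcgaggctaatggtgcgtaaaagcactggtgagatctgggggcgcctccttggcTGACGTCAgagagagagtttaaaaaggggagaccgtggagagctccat
Gad1: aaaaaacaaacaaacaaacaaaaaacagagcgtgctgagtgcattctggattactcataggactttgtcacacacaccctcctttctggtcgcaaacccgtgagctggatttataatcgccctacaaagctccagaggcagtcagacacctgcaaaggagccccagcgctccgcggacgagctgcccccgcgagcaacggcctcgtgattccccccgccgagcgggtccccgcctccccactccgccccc
The element starts 48 bases before the Sst start site. It was searched on both strands in windows of 250 bases before and 50 bases after the start and was found in the window of Sst alone among the 10 windows of the 8 genes, against 1.79% of all 32851 windows. The core of the ROR response element, TAGGTCA, was in 0 of the 10 windows (2.61% of all windows hold it), and the homeodomain core TAATTA in 0 of 10 (5.29% of all). The cAMP response element was added to the search after the values were seen. A match describes letters, not binding.

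Npy, the gene of neuropeptide Y, which is made in part of the somatostatin cells and in neurogliaform interneurons, had a positive mean in cortex with a wider spread. Its log2 ratios were -0.17, 0.64, 0.68 and 0.28 in litters 1 to 4 with mutant RNA in Cy5, and -0.34, 0.14, 0.57 and 0.70 with mutant RNA in Cy3. Litter 1 was negative on both arrays, and the other 3 litters were positive on both. The mean was 0.31 ± 0.39 (1.24-fold; SD, n = 4; 95% interval 0.013 to 0.61; unadjusted p = 0.0420 and adjusted p = 0.603 by limma). By limma it was 0.50 without litter 1 (adjusted p = 0.361) and 0.21 without litter 3 (adjusted p = 0.855), and 0.045 with the columns read as Cy5 over Cy3 (adjusted p = 0.915).

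**Figure D1:**
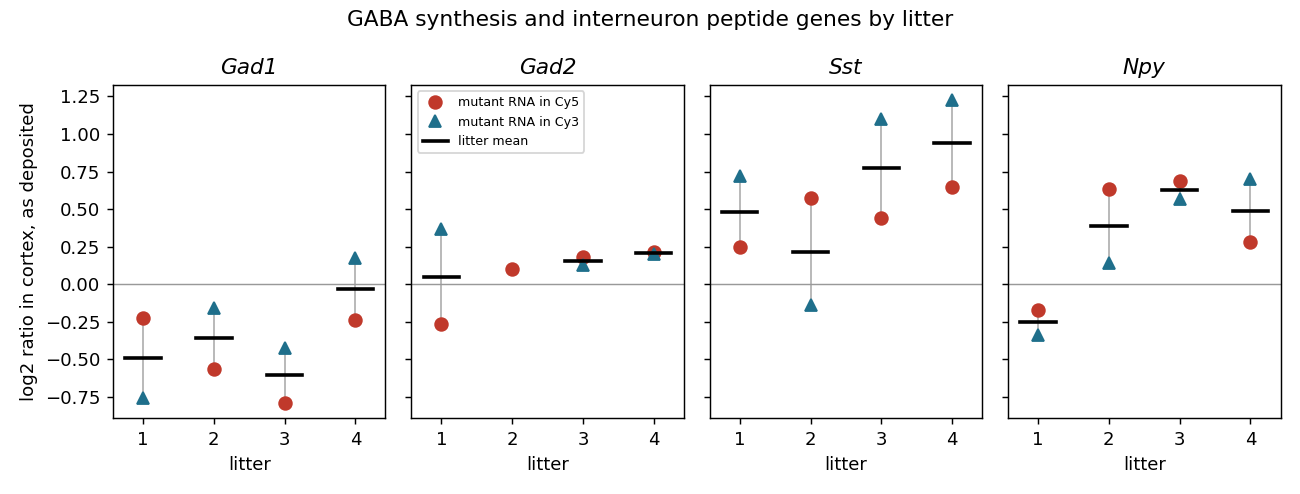
Log2 ratios in cortex (vertical axis, as deposited) of Gad1, Gad2, Sst and Npy in litters 1 to 4 (horizontal axis). Circles are arrays with mutant RNA in Cy5, triangles arrays with mutant RNA in Cy3, and bars the litter mean where both arrays had a value. All 4 litter means lie below 0 for Gad1 and above 0 for Sst, and litter 1 stands below 0 for Npy.

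In VB the peptides were only partly measured. Sst had values on 6 of 8 VB arrays, 0.44 and 0.26 in litters 3 and 4 with mutant RNA in Cy5, and -0.28, -0.52, 0.41 and 0.27 in litters 1 to 4 with mutant RNA in Cy3. Litters 3 and 4 had a pair, with means of 0.42 and 0.26, and litters 1 and 2, which lacked an array, had the negative values. Sst therefore lacked the 3 litters with a pair that the test asked for. With either array of a litter its VB mean was -0.030 (adjusted p = 0.968 by limma). Npy had 5 values there, 0.015 and -0.079 with mutant RNA in Cy5 and -0.37, -0.42 and -0.12 with mutant RNA in Cy3, of which 1 was positive. It had a pair in litter 4 alone, and with either array of a litter its mean was -0.22 (adjusted p = 0.529 by limma).

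Of the GABA synthesis genes, Gad1 had negative litter ratios throughout the cortex, while the Gad2 probe of the group had small positive ones. A second Gad2 probe, given below, had cortex litters of both signs. Gad1 encodes the decarboxylase that makes most of the GABA in the brain, in cell bodies as well as terminals, and lies on chromosome 2 (70561303 to 70602014). In cortex its log2 ratios were -0.22, -0.56, -0.79 and -0.24 in litters 1 to 4 with mutant RNA in Cy5, and -0.75, -0.16, -0.42 and 0.18 with mutant RNA in Cy3. Thus 7 of 8 arrays were negative, and the exception was litter 4 with mutant RNA in Cy3. The mean over litters was -0.37 ± 0.25 (0.773-fold; SD, n = 4; 95% interval -0.63 to -0.12). Only 3.29% of the tested cortex features had a larger size. Gad1 did not pass over all features (unadjusted p = 0.00792, adjusted p = 0.391 by limma; exact permutation p over litters 0.125, two-sided). Litter 4 had the value nearest to 0, and without it the mean was -0.48 (adjusted p = 0.102). With the columns read as Cy5 over Cy3 it was -0.082, and it did not pass by limma.

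Gad2 encodes the decarboxylase of synaptic terminals and lies on chromosome 2 as well (22621015 to 22693877). In cortex it had -0.27, 0.10, 0.18 and 0.22 in litters 1 to 4 with mutant RNA in Cy5, and 0.37, 0.13 and 0.20 in litters 1, 3 and 4 with mutant RNA in Cy3. The values were positive on 6 of 7 arrays. The mean was 0.14 ± 0.081 (1.10-fold; SD, n = 3; 95% interval -0.13 to 0.41; adjusted p = 0.853 by limma). A second probe, deposited under the symbol 6330404F12Rik and now annotated to Gad2, had 0.036 ± 0.19 in VB and 0.0085 ± 0.037 in cortex (SD, n = 4 litters each), with 2 positive and 2 negative litters in each tissue. The probe had cortex means of -0.11 with mutant RNA in Cy5 and 0.13 with mutant RNA in Cy3, and -0.45 and 0.39 in litter 2. It was not counted among the 8 probes.

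Set side by side on the same arrays, the ratio of Sst was above that of Gad1 on 8 of 8 cortex arrays, by 0.97 log2 units on average, and the ratio of Npy was above that of Gad1 on 8 of 8, by 0.68. The ratio of Gad1 was below that of the Gad2 probe of the group on 6 of 7 cortex arrays, with a mean difference of -0.54. The second Gad2 probe was not compared. These counts rest on the columns as deposited. Read as Cy5 over Cy3, Sst stood above Gad1 on 4 of 8 cortex arrays (mean difference -0.043), Npy above Gad1 on 4 of 8 (0.13) and Gad1 below Gad2 on 3 of 7 (-0.049). The differences between genes were not tested, and the share of gene pairs ordered alike on all arrays was not counted. Sst and Gad1 had the highest and lowest cortex means of the tested genes (0.60 and -0.37). The 8 arrays are 4 litters with 2 arrays each. The count for Sst and Gad1 therefore largely restates their means. In VB, Sst stood above Gad1 on 5 of 6 arrays, and Gad1 below Gad2 on 6 of 8, with mean differences of 0.21 and -0.053, while Npy stood above Gad1 on 1 of 5 and below it on 4, with a mean difference of -0.047.

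In VB, Gad1 and Gad2 were measured on all 8 arrays. Gad1 had -0.21, -0.22, 0.085 and -0.064 in litters 1 to 4 with mutant RNA in Cy5, and -0.35, -0.28, -0.19 and 0.085 with mutant RNA in Cy3. Its mean was -0.14 ± 0.14 (0.906-fold; SD, n = 4; 95% interval -0.30 to 0.019; adjusted p = 0.549 by limma), with 3 of 4 litters negative and negative means in both dye assignments (-0.10 with mutant RNA in Cy5 and -0.18 with mutant RNA in Cy3). Gad2 had -0.082, -0.56, -0.24 and -0.043 with mutant RNA in Cy5, all negative, and -0.14, -0.010, 0.18 and 0.17 with mutant RNA in Cy3. Its means of -0.23 and 0.050 in the dye assignments had opposite signs, and the mean over litters was -0.090 ± 0.15 (SD, n = 4; adjusted p = 0.720 by limma). It was -0.026 without litter 2 and -0.14 without litter 4.

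Slc32a1, the vesicular transporter that GABAergic and glycinergic neurons share, had no litter with a pair of arrays in either tissue, so it had no ratio per litter free of the dye. It had 3 values in VB, all with mutant RNA in Cy3 (0.0060, -0.26 and -0.0010 in litters 1 to 3). In cortex it had 4 values, 0.094, -0.22 and 0.27 in litters 2 to 4 with mutant RNA in Cy5 and -0.15 in litter 1 with mutant RNA in Cy3. With either array of a litter taken, the mean was -0.085 in VB and -5e-04 in cortex (n = 3 and 4 litters; adjusted p = 0.809 and 0.999 by limma), and with mutant RNA in Cy5 alone it was 0.048 in cortex (adjusted p = 0.942). Why a spot has no value is not given in the sources used here.

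**Figure D2:**
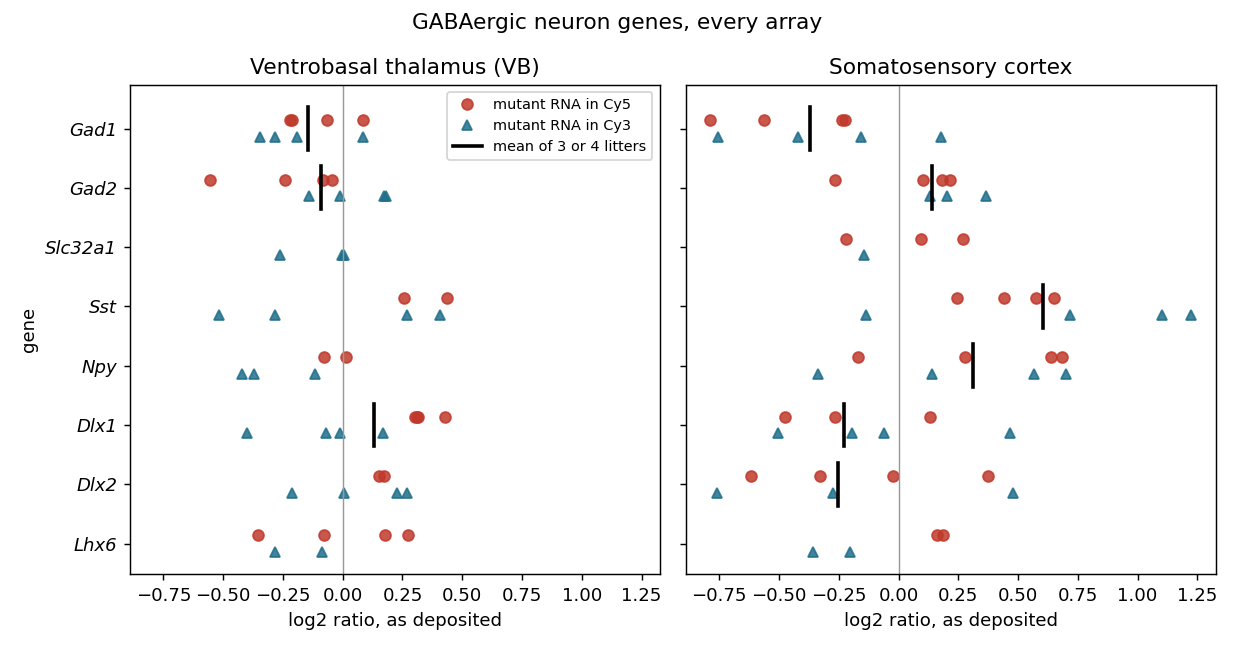
Log2 ratio as deposited (horizontal axis) of the 8 genes (rows) on every array with a value, in VB and in cortex. Circles are arrays with mutant RNA in Cy5, triangles arrays with mutant RNA in Cy3, and vertical bars the mean over litters of tested genes. Sst in cortex is positive on 7 of 8 arrays, Gad1 in cortex is negative on 7 of 8, and Dlx1 in VB has its 4 Cy5 values above 0.30.

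On the genome, 6 of the 8 genes are on chromosome 2, though most of them lie far apart. Dlx1 and Dlx2, homeobox genes that specify GABAergic neurons of the ventral forebrain, are neighbours with 9426 bases between their annotated ends, and Gad1 ends 926 kilobases before Dlx1. In cortex Dlx1 had -0.48, -0.27 and 0.13 in litters 1 to 3 with mutant RNA in Cy5, and -0.50, -0.20, -0.062 and 0.47 in litters 1 to 4 with mutant RNA in Cy3. Dlx2 had -0.61, -0.022, 0.37 and -0.33 in litters 1 to 4 with mutant RNA in Cy5, and -0.76, -0.27 and 0.48 in litters 1, 2 and 4 with mutant RNA in Cy3. Both were most negative in litter 1 in both dye assignments and varied widely among the litters. Dlx1 averaged -0.23 ± 0.26 and Dlx2 -0.25 ± 0.39 in cortex (SD, n = 3 litters each; adjusted p = 0.745 and 0.749 by limma). Without litter 1 they were -0.098 for Dlx1 and -0.036 for Dlx2, without litter 3 Dlx1 was -0.36, without litter 4 Dlx2 was -0.42, and with either array of a litter they were -0.055 for Dlx1 and -0.096 for Dlx2. On the 6 cortex arrays with both, Dlx1 was above Dlx2 on 3 and below it on 3.

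In VB the 4 Dlx1 values with mutant RNA in Cy5 were close together at 0.32, 0.30, 0.31 and 0.43, while those with mutant RNA in Cy3 were 0.17, -0.40, -0.070 and -0.010. The groups of arrays did not overlap, and how many features split in this way was not counted. Over all VB features, 32.2% kept the sign of the mean when the dyes were exchanged, so a change of sign was common. The mean of Dlx1 over litters was 0.13 ± 0.13 (1.09-fold; SD, n = 4; adjusted p = 0.566 by limma). On the arrays with mutant RNA in Cy5 alone the mean was 0.34 ± 0.058 (SD, n = 4) and passed with an adjusted p of 0.0448 by limma, where 6.47% of all features passed, and on those with mutant RNA in Cy3 alone it was -0.078 (adjusted p = 0.692), where 8.02% passed. With the columns read as Cy5 over Cy3, the mean of Dlx1 in VB was 0.21 (adjusted p = 0.0613). Dlx2 in VB had 0.17 and 0.15 in litters 3 and 4 with mutant RNA in Cy5, and 0.23, 0.27, 0.0070 and -0.21 in litters 1 to 4 with mutant RNA in Cy3, with pairs in 2 litters. With either array of a litter its mean was 0.14 (adjusted p = 0.612 by limma).

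Lhx6, a LIM homeobox gene of interneurons born in the medial ganglionic eminence, the source of the somatostatin and parvalbumin types, had too few litters with a pair for the test in either tissue. In VB it had -0.35, -0.077, 0.18 and 0.27 in litters 1 to 4 with mutant RNA in Cy5, and -0.085 and -0.28 in litters 3 and 4 with mutant RNA in Cy3. In cortex it had 0.16 and 0.19 in litters 2 and 4 with mutant RNA in Cy5 and -0.20 and -0.36 in litters 1 and 4 with mutant RNA in Cy3. The cortex values were positive with mutant RNA in Cy5 and negative with mutant RNA in Cy3. Only litter 4 had both arrays, so dye and litter cannot be told apart in the other values. With either array of a litter the means were -0.098 in VB and -0.043 in cortex (adjusted p = 0.742 and 0.972 by limma).

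**Figure D3:**
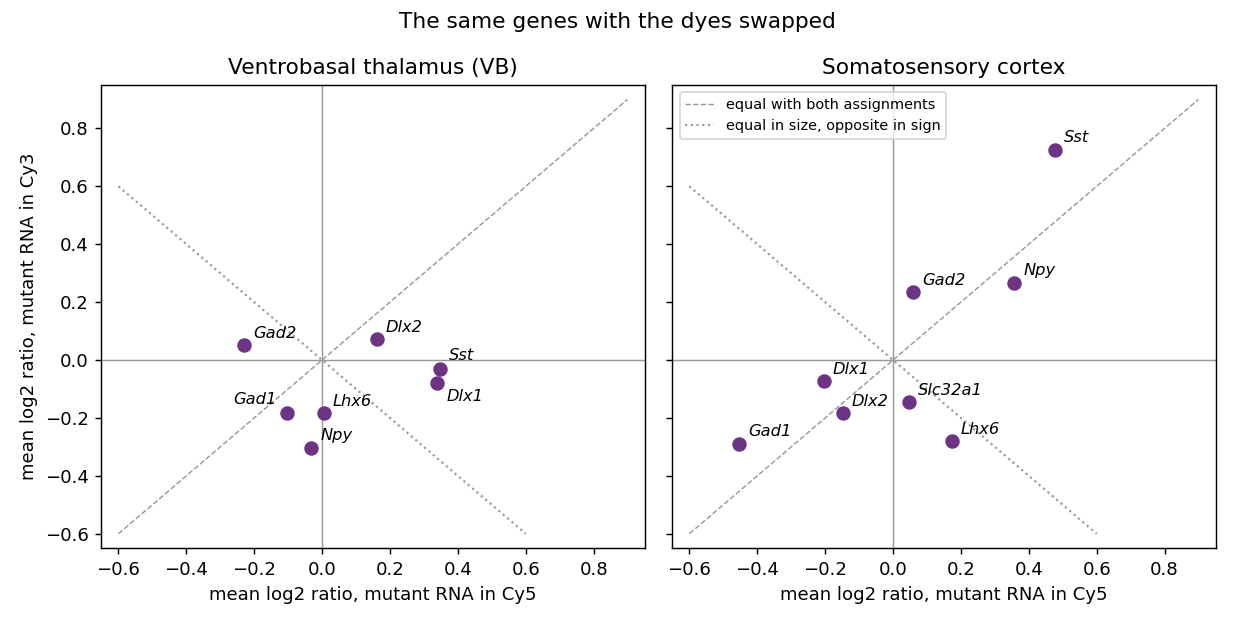
Mean log2 ratio of each gene with values in both dye assignments, on the arrays with mutant RNA in Cy5 (horizontal axis) against its mean on those with mutant RNA in Cy3 (vertical axis), in VB and in cortex. Genes near the dashed line had the same ratio with the dyes exchanged, and genes near the dotted line changed sign with the dye. Sst and Npy in cortex are positive on both axes, and Gad1, Dlx1 and Dlx2 are negative on both.

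For the whole group, 3 of 8 genes could be tested in VB and 6 of 8 in cortex, since a gene needed a pair of arrays in at least 3 litters. In VB 0 of 3 passed an adjusted p of 0.05 by limma, against 0.317% of 16067 features, and 0 had an unadjusted p under 0.05, against 10.2%. In cortex 0 of 6 passed an adjusted p of 0.05 by limma, against 0.0605% of the 16522 features tested (0.0182% positive and 0.0424% negative), and 3 of 6 (Sst, Gad1 and Npy) had an unadjusted p under 0.05, against 7.90%. On the cortex arrays with mutant RNA in Cy5 alone 0 of 7 genes with enough values passed by limma (0.497% of all features) and 3 had an unadjusted p under 0.05 (10.7%). On those with mutant RNA in Cy3 alone 0 of 6 passed by limma (0.741%) and 1 had an unadjusted p under 0.05 (10.1%). In VB 1 ratio was positive and 2 were negative, with a median of -0.090 (all features 0.0057, with 52.5% positive). In cortex 3 were positive and 3 negative, with a median of -0.045 (all features -0.0031, with 49.1% positive). Exchanging the dyes left the sign of the mean unchanged for 1 of 3 tested genes in VB, against 32.2% of all features, and for 6 of 6 in cortex, against 46.5%. The sign was the same in every litter with a pair for 0 of 3 genes in VB, against 24.4% of all features, and for 3 of 6 in cortex (Gad1, Gad2 and Sst), against 20.3%. The second Gad2 probe, which these counts leave out, changed the sign of its cortex mean with the dyes and had cortex litters of both signs.

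**Figure D4:**
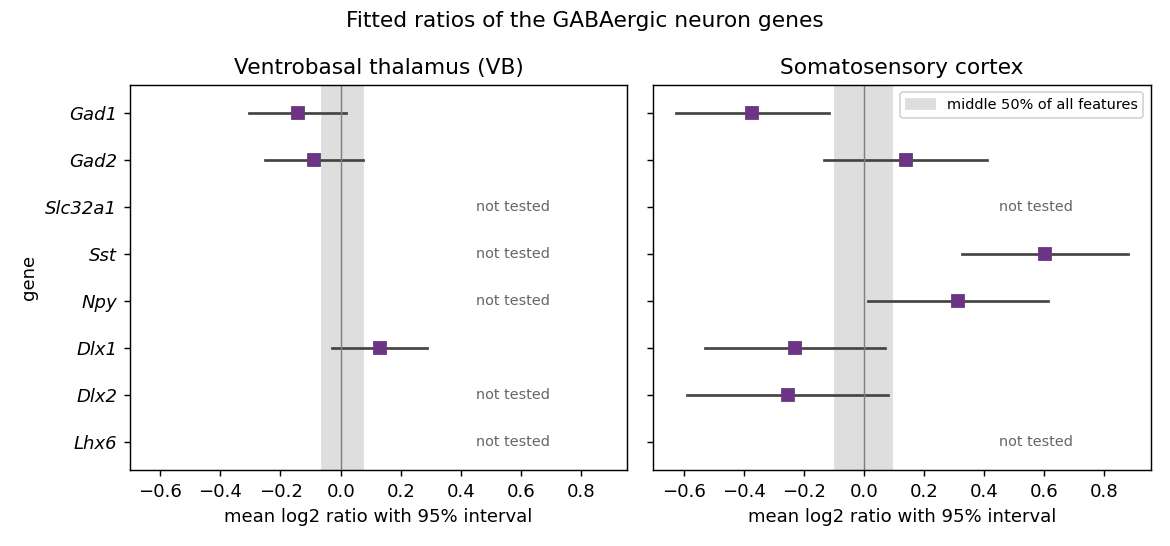
Mean log2 ratio of each tested gene (squares, horizontal axis) with its 95% interval from limma (lines), in VB and in cortex. The grey band holds the middle 50% of all features tested. In cortex the intervals of Gad1 (-0.63 to -0.12), Sst (0.33 to 0.88) and Npy (0.013 to 0.61) exclude 0, before adjustment over all features.

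The difference between the tissues, VB minus cortex, could be tested for 3 genes. The fit had no litter block, so it treated the VB and cortex values of a shared litter as independent. Dlx1 averaged 0.13 in VB and -0.23 in cortex, a difference of 0.36 (95% interval 0.040 to 0.68; unadjusted p = 0.0304 and adjusted p = 0.495 by limma). Gad1 averaged -0.14 in VB and -0.37 in cortex, a difference of 0.23 (-0.072 to 0.53; adjusted p = 0.693). Gad2 averaged -0.090 in VB and 0.14 in cortex, a difference of -0.23 (-0.51 to 0.051; adjusted p = 0.663). The values moved with the reading and with single litters. As Cy5 over Cy3 the differences were 0.18 for Dlx1, 0.12 for Gad1 and -0.045 for Gad2 (adjusted p = 0.493, 0.676 and 0.904 by limma), and the difference was 0.19 for Dlx1 without litter 1 and 0.12 for Gad1 without litter 3. None of the 3 passed, against 0.0985% of the 12179 features tested, and 1 of 3 had an unadjusted p under 0.05, against 9.04%. With litter as a replicate block the difference of Dlx1 was 0.33 (unadjusted p = 0.0727 by limma). In that fit 0 of 3 genes had an unadjusted p under 0.05, against 1006 of 12179 features.

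Other genes of the GABAergic system came from lists of related genes. Of 24 other interneuron markers, 15 were tested in VB (6 positive, 9 negative, median -0.0098) and 16 in cortex (6 positive, 10 negative, median -0.023). In VB Calb2, the gene of calretinin, had a ratio of -0.41 ± 0.091 (SD, n = 4) and passed with an adjusted p of 0.0350 by limma, negative in 4 of 4 litters, against 0.230% of all VB features passing on the positive side and 0.0871% on the negative side. Its means were -0.18 with mutant RNA in Cy5 and -0.64 with mutant RNA in Cy3. The call was lost with the arrays kept apart and an estimated correlation within litters (adjusted p = 0.123 by limma), with quantile normalization (0.0912) and without litter 1, 2 or 3 (0.0685, 0.0887 and 0.142). It was also lost with mutant RNA in Cy5 alone (adjusted p = 0.281 by limma) and with either array of a litter (0.155). Read as Cy5 over Cy3, the ratio turned positive and passed (0.23, adjusted p = 0.0442 by limma). Calretinin also marks cells other than interneurons, among them thalamic neurons. The next smallest p in VB was that of Reln, which encodes the secreted protein reelin (-0.17, adjusted p = 0.642). In cortex 0 passed by limma and 3 had an unadjusted p under 0.05, against 7.90% of all features. Calb1, the gene of the calcium buffer calbindin found in many somatostatin cells, had -0.55 ± 0.39 (SD, n = 4; adjusted p = 0.246), and Pnoc, the gene of the peptide precursor of nociceptin, -0.45 ± 0.063 (SD, n = 3; adjusted p = 0.289), both negative in every litter with a pair.

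The third was Cck, the gene of cholecystokinin, a peptide of basket interneurons and of pyramidal cells. It had 0.57 ± 0.50 (SD, n = 4; adjusted p = 0.290), positive in 4 of 4 litters and in both dye assignments (0.55 and 0.60). Cck and the genes that follow in this paragraph were named after their values were seen. Tac1, which encodes substance P, had 0.21 (n = 3), Vip, the gene of vasoactive intestinal peptide, 0.13 (n = 4), and Cort, the somatostatin relative cortistatin, -0.076 (n = 4). Pvalb, which marks fast-spiking basket cells, had 0.065 ± 0.28 (SD, n = 4; adjusted p = 0.947), with 2 positive and 2 negative litters. The peptide genes of cortex thus stood on both sides of 0.

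Of 27 transcription factors and migration genes of interneurons, 19 were tested in each tissue, with 12 positive and 7 negative in VB (median 0.062) and 9 positive and 10 negative in cortex (median -0.0072). None passed by limma, 2 had an unadjusted p under 0.05 in VB (10.2% of all features) and 3 in cortex (7.90%). Nr2f1, a nuclear receptor gene of caudal interneurons that also sets cortical area identity, had 0.16 in VB (adjusted p = 0.480) and -0.64 ± 0.31 in cortex (SD, n = 4; adjusted p = 0.132), positive in 4 of 4 litters in VB and negative in 4 of 4 in cortex. Of all features complete in both tissues, 1.32% had opposite signs in this way. In VB its means were -0.023 with mutant RNA in Cy5 and 0.34 with mutant RNA in Cy3. Nr2f2, its relative, had 0.61 in VB (adjusted p = 0.237), made of -0.38 with mutant RNA in Cy5 and 1.59 with mutant RNA in Cy3. Gsx2, a homeobox gene of the lateral ganglionic eminence, had 0.58 ± 0.46 in cortex (SD, n = 4; adjusted p = 0.255), positive in 4 of 4 litters.

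Of 6 genes for GABA uptake and breakdown, 4 were tested in VB and 5 in cortex, and 0 passed by limma. An unadjusted p under 0.05 was found for 0, against 10.2% of all features in VB and 7.90% in cortex. Their ratios ran from -0.15 to 0.078 in VB and from -0.0036 to 0.21 in cortex (medians -0.011 and 0.024). Abat, the transaminase that breaks down GABA, had 0.0043 in VB and 0.21 in cortex (adjusted p = 0.990 and 0.745). The transporter genes Slc6a12 (-0.15 in VB and 0.20 in cortex, n = 3 each) and Slc6a13 (0.078 in VB) had adjusted p values from 0.542 to 0.748 by limma. The VB means of Slc6a13 were -0.076 with mutant RNA in Cy5 and 0.23 with mutant RNA in Cy3.

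Of 11 genes that specify GABAergic neurons or other neurons of the thalamus and midbrain, 10 were tested in each tissue, with 8 positive and 2 negative in VB (median 0.056) and 5 and 5 in cortex (median 0.0032). None passed by limma. In cortex 0 had an unadjusted p under 0.05 (7.90% of all features), and 2 in VB did (10.2%). These were Otx2 (0.26 ± 0.15, adjusted p = 0.232 by limma) and Tcf7l2 (0.21 ± 0.25, adjusted p = 0.474; SD, n = 4 each). In VB Tcf7l2 had means of -0.10 with mutant RNA in Cy5 and 0.52 with mutant RNA in Cy3, and Otx2 0.12 and 0.41. Otx2 is a homeobox gene of the early midbrain and diencephalon, and Tcf7l2 a transcription factor of thalamic relay neurons. In cortex Otx2 had 0.31 and Gata3, a factor of midbrain GABAergic neurons, -0.21 (adjusted p = 0.668 and 0.743 by limma). The Otx2 mean in cortex was made of 0.67 with mutant RNA in Cy5 and -0.055 with mutant RNA in Cy3.

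**Figure D5:**
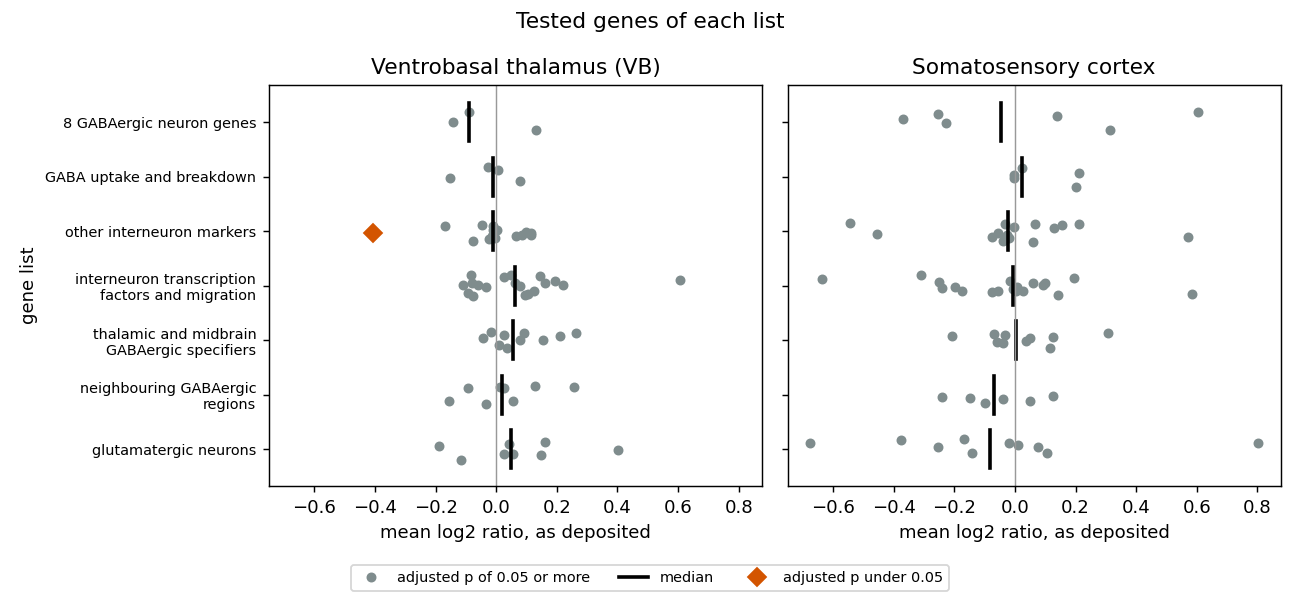
Mean log2 ratio (horizontal axis) of each tested gene of the 8 GABAergic neuron genes and of 6 related lists (rows), in VB and in cortex. Grey points did not pass, the diamond (Calb2 in VB) passed an adjusted p of 0.05, and bars are medians. The medians of the 6 related lists lie between -0.081 and 0.062.

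Genes of other cells in or beside the dissected tissue were given the same counts, and their part in the ratios above was not tested. Of 12 genes listed for neighbouring GABAergic regions such as the striatum and the reticular nucleus, 8 were tested in VB (5 positive, 3 negative, median 0.019) and 6 in cortex (2 and 4, median -0.069). Bulk ratios do not show whether the RNA of these genes came from those regions or from the dissected tissue itself. None of these genes passed by limma. In VB 2 had an unadjusted p under 0.05, against 10.2% of all features, and in cortex 0, against 7.90%. Foxp2 (0.26) and Drd2, a dopamine receptor gene (-0.16), had the smallest p in VB (adjusted p = 0.383 and 0.474 by limma). In cortex these were Ppp1r1b (-0.24) and Spp1 (-0.15), with 0.704 and 0.846. The cortex mean of Ppp1r1b was made of 0.046 with mutant RNA in Cy5 and -0.53 with mutant RNA in Cy3. Of 12 genes of glutamatergic neurons, 8 were tested in VB (6 positive, 2 negative, median 0.049) and 10 in cortex (4 and 6, median -0.081), and 0 passed by limma. An unadjusted p under 0.05 was found for 2 in VB (10.2% of all features) and 3 in cortex (7.90%). Slc17a7, a vesicular glutamate transporter gene, had 0.40 in VB (adjusted p = 0.259) and Camk2a 0.16 (0.430). Neurod6, a transcription factor gene of young pyramidal cells, had 0.80 ± 0.76 in cortex and Grin1, a glutamate receptor gene, -0.38 ± 0.20 (SD, n = 4 each; adjusted p = 0.262 and 0.334).

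Of 10 astrocyte genes, 9 were tested in VB (5 positive, 4 negative, median 0.033) and 10 in cortex (3 and 7, median -0.11), and Gja1, a gap junction gene, passed by limma with -0.57 ± 0.11 in VB and -0.93 ± 0.30 in cortex (SD, n = 4 each; adjusted p = 0.00868 and 0.0175). Its VB means were -0.16 with mutant RNA in Cy5 and -0.98 with mutant RNA in Cy3. The VB call was lost with the arrays kept apart and an estimated correlation within litters (adjusted p = 0.158 by limma), and the cortex call held (0.0240). The VB call was also lost with mutant RNA in Cy5 alone (adjusted p = 0.378 by limma) and with either array of a litter (0.0756). The cortex call was lost without litter 1 or 3 (adjusted p = 0.0890 and 0.0767 by limma). It was also lost with mutant RNA in Cy3 alone (adjusted p = 0.0954 by limma) and with either array of a litter (0.0959). Read as Cy5 over Cy3, Gja1 had a positive ratio in VB that passed (0.41, adjusted p = 0.00676 by limma) and -0.22 in cortex (adjusted p = 0.423). S100b had 0.22 in VB, made of -0.034 with mutant RNA in Cy5 and 0.47 with mutant RNA in Cy3. Slc1a2 had -0.33 in cortex. Of the astrocyte genes tested, 2 positive and 1 negative had an unadjusted p under 0.05 in VB, against 10.2% of all features. In cortex 0 positive and 2 negative did, against 7.90%. Of 10 oligodendrocyte genes, 6 were tested in VB (3 and 3, median 0.024, Olig1 -0.15 and Cspg4 -0.15) and 5 in cortex (2 and 3, median -0.0028, Pdgfra -0.11 and Olig2 -0.094). Of 8 microglia genes, 4 were tested in VB (3 and 1, median 0.033, Cx3cr1 -0.066 and Itgam 0.049) and 4 in cortex (1 and 3, median -0.11, C1qa -0.25 and Cx3cr1 -0.14). Of 9 genes of vascular cells, 8 were tested in VB (2 and 6, median -0.047, Rgs5 -1.10 and Cspg4 -0.15) and 5 in cortex (2 and 3, median -0.021, Rgs5 -0.16 and Pecam1 -0.083). The VB ratios of Rgs5 had an SD of 1.69 (n = 3 litters), with 1 litter positive and 2 negative. No gene of these 3 lists passed by limma, and 2 (Olig1 and Rgs5, both in VB) had an unadjusted p under 0.05, against 10.2% of all VB features.

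Over the 8 litter ratios of VB and cortex together, the genes whose ratios ran most like those of Gad1 were Kcnd2, a potassium channel gene (Pearson r = 0.950), Ppil3 (0.950), Ap1s2 (0.935) and Evx1os (0.930). They were the highest among 4248 features with complete values, the points share the tissue difference, and the values are a description.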

How the data were processed

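The deposited values are log ratios of the channels of 16 arrays, as the authors processed them, and were taken as log2. The sources used here do not name their base, numerator, scanner, background correction or normalization method. With ratios alone, neither signal over background nor a filter on dim probes could be applied, and the number of arrays limits the precision. Each array held 17711 to 22580 values. Genes were named from the platform annotation and RefSeq (GRCm38.p6), giving 20369 of 24107 probes 1 symbol. The genes described are the probes with the platform symbol itself.

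The arrays of a swapped pair were averaged per litter, both being needed, probes of a symbol were averaged, and features with at least 3 litters were tested against a ratio of 0 with limma 3.58.1 (R 4.3.3), each tissue alone, with Benjamini-Hochberg adjustment over all its features. The code was tested on simulated data. Litters carry the numbers 1 to 4 in VB and cortex alike, per the labels, and so mark shared litters. VB minus cortex was fitted without a litter block, with the block as an alternative. Deviations of same-numbered litters from the tissue means correlated at -0.015 to 0.029 across genes. The columns would have been turned had at least 3 swapped pairs of Xist or Y-linked probes exceeded 1 in size, all with opposite signs. Only 1 pair exceeded it, with the same sign. Named are all 8 genes, the passing or the 2 lowest-p genes of each list, and the 4 most like Gad1. A few peptide genes and Pvalb, which the text marks, were named outside this rule, after their values were seen. Members and lists were chosen with earlier results of these data known. Alternatives covered normalization, column direction, dye assignments, filters and litters.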

Additional observations from a re-analysis of the deposited data

Results flagged for a closer look

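Among the 8 genes and the genes named from the lists, 65 sets of 4 arrays or 4 litter ratios were checked for a value far from the rest, of which chance alone marks about 1 in 20. On the VB array of litter 4 with mutant RNA in Cy5, Dlx1 had a log2 ratio of 0.426, against 0.303 to 0.316 in the other 3 litters of that dye assignment. Litter 2 stood apart for Drd2 in VB, with a litter ratio of -0.294, against -0.114 to -0.104 in the other 3.

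For 5 of the genes named from the lists, every litter of VB had one sign and every litter of cortex the opposite. Of features with 4 litters in each tissue, as Nr2f1 had, 1.32% did so. The other genes had fewer litters with a pair, where opposite signs come more easily by chance. The share for such features was not counted, and the genes had been named for small p values. Nr2f1 averaged 0.16 in VB and -0.64 in cortex, a difference of 0.80 (0.797; 95% interval 0.48 to 1.12; adjusted p = 0.0812 by limma). Pnoc averaged 0.11 in VB and -0.45 in cortex, a difference of 0.569 (adjusted p = 0.208 by limma). Slc6a12 averaged -0.15 in VB and 0.20 in cortex, a difference of -0.355 (adjusted p = 0.428 by limma). Drd2 (VB minus cortex -0.320) and Olig1 (-0.347) had pairs in 2 cortex litters, and their differences were not tested. The VB mean of Olig1 was made of 0.45 with mutant RNA in Cy5 and -0.76 with mutant RNA in Cy3. None of the 3 tested differences passed in this fit, which had no litter block. Labelling method and tissue cannot be told apart in any of the 5.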

How the results depend on the processing

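Of 147 recomputed ratios and tissue differences of the 8 genes, 140 kept their sign and their side of the threshold, 6 changed sign and 1 passed. Read as Cy5 over Cy3, the columns turned the sign of Sst (-0.12), Gad2 (-0.095) and Dlx1 (0.025) in cortex and of Gad1 in VB (0.040), and shrank Gad1 in cortex to -0.082 and Npy to 0.045, all with adjusted p values of 0.716 or more. Arrays with mutant RNA in Cy3 alone turned Dlx1 (-0.078) and Gad2 (0.050) in VB, and those with mutant RNA in Cy5 alone gave the 1 member called in VB, Dlx1 (0.34). Taken as deposited, Sst in cortex ran from 0.48 to 0.73 (adjusted p 0.0825 to 0.537, the lowest without litter 2) and Gad1 in cortex from -0.48 to -0.29 (0.102 to 0.742). Calb2 and Gja1 in VB turned to 0.23 and 0.41 as Cy5 over Cy3. Using either array of a litter, added after the data were seen, put Sst in VB at -0.030 (adjusted p = 0.968), against 0.34 (0.309) with pairs in at least 2 litters.

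Counts over all features moved more. In VB, 51 features passed (37 positive, 14 negative). There were 19 with quantile normalization (10 and 9), 2784 with the columns as Cy5 over Cy3, 0 with arrays kept apart (2181 at an unadjusted p under 0.05 by limma), 1165 and 1678 with mutant RNA in Cy5 or Cy3 alone, 7 with either array, and 41 to 174 without 1 litter, the most without litter 4. In cortex 10 passed (3 positive, 7 negative), 7 after quantile normalization (1 and 6), 253 as Cy5 over Cy3, 5 with arrays kept apart, 95 and 152 with mutant RNA in Cy5 or Cy3 alone, 18 with at least 2 litters, 16 with each probe alone, 2 with either array, and 2 to 181 without 1 litter, the fewest without litter 1 and the most without litter 4. For VB minus cortex 12 passed, 455 as Cy5 over Cy3, 14 after quantile normalization and 1 to 14 without 1 litter, with 1, 3 and 4 without litters 1, 2 and 3. With litter as a replicate block 16 passed, and no call of the 8 genes changed (Dlx1 0.33, unadjusted p = 0.0727 by limma). The cause of these shifts was not tested.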
